A study of Mus musculus with 5 samples.

Results

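The C/EBP family, a group of transcription factor genes named after CCAAT/enhancer binding, was examined in common dendritic cell progenitors (CDP) and common myeloid progenitors (CMP) of mouse marrow. The members were taken by name, as every probe set of the deposited table whose platform annotation gives Cebpa, Cebpb, Cebpd, Cebpe, Cebpg or Cebpz as its sole gene symbol. This gave 8 of 45037 probe sets, covering 4 of the 6 genes, among 18193 genes named in the table. Cebpe and Cebpz had no such probe set and were not analysed here. No C/EBP probe set passed the test across the table. Cebpa was 3.62-fold lower in CDP. The brightest probe sets of Cebpb and Cebpd were 2.47-fold and 2.24-fold higher, with overlap between the groups. For Cebpg the brightest probe set was 1.13-fold higher and the second 2.55-fold higher. All of these were without passing.

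The series set CDP (3 arrays) against CMP (2 arrays), each population sorted by flow cytometry and then sorted again, on Affymetrix arrays. The title of the third CDP sample begins with CM where the other titles begin with BM, though its other labels give bone marrow and CDP. All mice were C57BL/6 of wild-type genotype, with no treatment, age or number of pooled animals in the labels. CDP were lineage-negative cells with intermediate c-Kit that carried CD34, Flk2 and CD115 but neither Sca-1 nor CD16/32. CMP were lineage-negative cells with high c-Kit that carried CD34 and Flk2 but not Sca-1, CD11c, CD16/32 or CD115. RNA from 10000 to 30000 cells per sample was amplified over 2 cycles. The labels do not tie the arrays to separate animals, and the p-values therefore reflect only how these samples vary, which could be technical variation. The series' title concerns IRF-8, neutrophil production and dendritic cell commitment, and C/EBP factors are the family best known for neutrophil production.

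C/EBP proteins carry a basic region that contacts DNA and a leucine zipper through which they pair with each other or with related factors. Cebpa is needed to form granulocyte and monocyte progenitors, Cebpe acts later in granulocyte maturation, and Cebpb drives granulocyte output under stress and acts in monocytes and macrophages. Cebpd is induced in inflammation. Cebpg lacks a strong activation domain and mostly acts as a partner of other leucine zipper proteins, while Cebpz bears the name but is not a leucine zipper factor. IRF-8 has been described to bind C/EBPα and limit its activity in mononuclear phagocyte progenitors.

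The DNA upstream of the start sites is shown for the 3 measured members in RefSeq's promoter table, because Cebpa is known to act on its own promoter. The stretches are the 250 bases before the start in GRCm38.p6, 5′ to 3′ on the gene's strand, upstream of the gene and its first exon. They lie at chr7:35119043-35119292 (plus strand) for Cebpa, chr2:167688665-167688914 (plus strand) for Cebpb and chr7:35056567-35056816 (minus strand) for Cebpg. Capitals mark, on either strand, the C/EBP core TTGCG, the CCAAT box, the TATA box sequence TATAAA and the core of the cyclic AMP response element, TGACG.
Cebpa: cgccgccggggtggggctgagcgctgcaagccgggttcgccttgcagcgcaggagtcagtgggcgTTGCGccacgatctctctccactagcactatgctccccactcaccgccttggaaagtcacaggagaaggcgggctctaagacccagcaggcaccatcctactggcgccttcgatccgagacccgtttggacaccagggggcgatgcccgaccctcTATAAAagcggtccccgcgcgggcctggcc
Cebpb: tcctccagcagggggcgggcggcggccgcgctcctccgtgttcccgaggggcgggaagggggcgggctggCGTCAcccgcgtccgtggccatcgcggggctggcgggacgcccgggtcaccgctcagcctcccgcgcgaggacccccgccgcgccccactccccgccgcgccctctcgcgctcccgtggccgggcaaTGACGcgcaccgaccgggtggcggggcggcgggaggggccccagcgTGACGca
Cebpg: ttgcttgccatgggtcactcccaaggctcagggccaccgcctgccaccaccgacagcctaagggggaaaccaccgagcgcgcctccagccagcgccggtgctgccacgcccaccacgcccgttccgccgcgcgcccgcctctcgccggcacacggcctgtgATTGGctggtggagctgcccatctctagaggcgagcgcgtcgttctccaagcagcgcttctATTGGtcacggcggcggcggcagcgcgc

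The Cebpa stretch held 1 match to TTGCG, from 185 to 181 bases before the start, and TATAAA from 30 to 25 bases before it. TTGCG or its complement occurs in 14.5% of 32851 such stretches and TATAAA in 12.4%. The Cebpb stretch held 3 matches to TGACG, a motif found in 17.8% of stretches, the nearest ending 3 bases before the start. The Cebpg stretch held 2 matches to CCAAT, both on the opposite strand, a motif found in 33.8%. None of the 3 held, on either strand, the longer C/EBP motif TTGCNNAA (9.56% of stretches) or CACGTG (6.02%), and the TTGCG match overlaps no other motif searched. These matches describe the letters in these windows. Cebpa and Cebpg are near neighbours on chromosome 7, with 1 other protein-coding gene listed between them.

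Values are log2 expression, and a probe set was called detected at or above log2 5 on an array, and it was tested if detected on 2 or more of the 5 arrays. Between 34.0% and 35.8% of probe sets were detected on each array. The labelled populations were compared by markers. Flt3 (Flk2), Csf1r (CD115), Kit, Cd34 and Itgax (CD11c) encode proteins used in the sort, so they are no independent check of it. Irf8, Id2 and Gata2 are also in the list of C/EBP partners and regulators below. Of the 5 dendritic progenitor markers, 5 (among them Flt3, Csf1r and Irf8) were detected on every CDP array and 4 on each CMP array, the exception being Itgax. Of the 5 early progenitor markers, 5 were detected on every array except CDP 2, which had 4, and their summed level (log2) was 10.83 to 11.39 on CDP and 12.51 and 13.36 on CMP. No marker of B cells or of T and NK cells reached log2 5 on any array. The summed markers of mast cells and basophils, megakaryocytes and monocytes differed between the groups without overlap, and those of erythroid cells overlapped. The summed level of the 4 mast cell and basophil markers with a probe set was 6.10 to 6.32 on CDP and 9.31 and 8.53 on CMP. Cpa3 was at 2.26 on every CDP array against 8.76 and 6.25, and Fcer1a and Ms4a2 were below detection on every array. That of the 4 megakaryocyte markers was 5.42 to 6.10 on CDP and 7.18 and 6.97 on CMP, with 2 of them below detection on every array. The sum of the 4 erythroid markers was 4.65 to 5.43 on CDP and 7.19 and 5.16 on CMP. Of these, 3 were below detection on every array, and Car1 was detected on CMP 1 alone (6.87). The sum of the 4 monocyte markers was 11.32 to 11.65 on CDP and 9.30 and 9.22 on CMP, with 1 of them below detection on every array. The part of these lineages in the differences below was not tested. The arrays stood apart in 2 ways that bear on the C/EBP values. CDP 1 and CMP 1 had a low 5′ beta-actin control signal (6.54 and 6.71, against 10.52 to 12.97 on the others). That signal is a measure of how far the amplified RNA reached, and these arrays are called the low-actin arrays. The 5′ Gapdh control did not split the arrays in the same way. It was 7.66 and 7.57 on CDP 1 and CMP 1, 7.40 on CDP 3, and 10.16 and 10.97 on CDP 2 and CMP 2. CDP 3 was counted among the other arrays by its actin signal. The Gapdh controls at the middle and 3′ end did split as 5′ actin did. The middle one was 7.78 and 8.27 on CDP 1 and CMP 1, against 11.77 to 13.18 on the others. The 3′ one was 12.30 and 12.28 against 14.01 to 14.19. Across tested probe sets CMP 1 correlated more with CDP 1 (Pearson r = 0.924) than with CMP 2 (0.895). CDP 1 was at 0.916 with CDP 2 and 0.925 with CDP 3. All 8 mature neutrophil markers with a probe set, S100a8 at 12.52 among them, were detected on CDP 2, and 0 of 8 on any other array. Their summed level was 14.00 (log2) on CDP 2, 5.57 to 5.64 on the other CDP arrays and 5.83 to 6.04 on CMP.

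Of 16552 tested probe sets, 1.73% passed in limma at an adjusted p (Benjamini-Hochberg over all of them) under 0.05, 1.31% higher and 0.423% lower in CDP. Of the 8 C/EBP probe sets 5 were tested, and 0 passed. At an unadjusted p under 0.05 there were 2 of the 5, 1 of Cebpa and 1 of Cebpg, beside 15.9% of all tested probe sets. The tested probe sets had a median difference of 0.12 as deposited and of 9.12e-05 after quantile normalization. Differences below are CDP minus CMP in log2 as deposited, and those of C/EBP members are also given relative to 0.12.

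**Figure D1:**
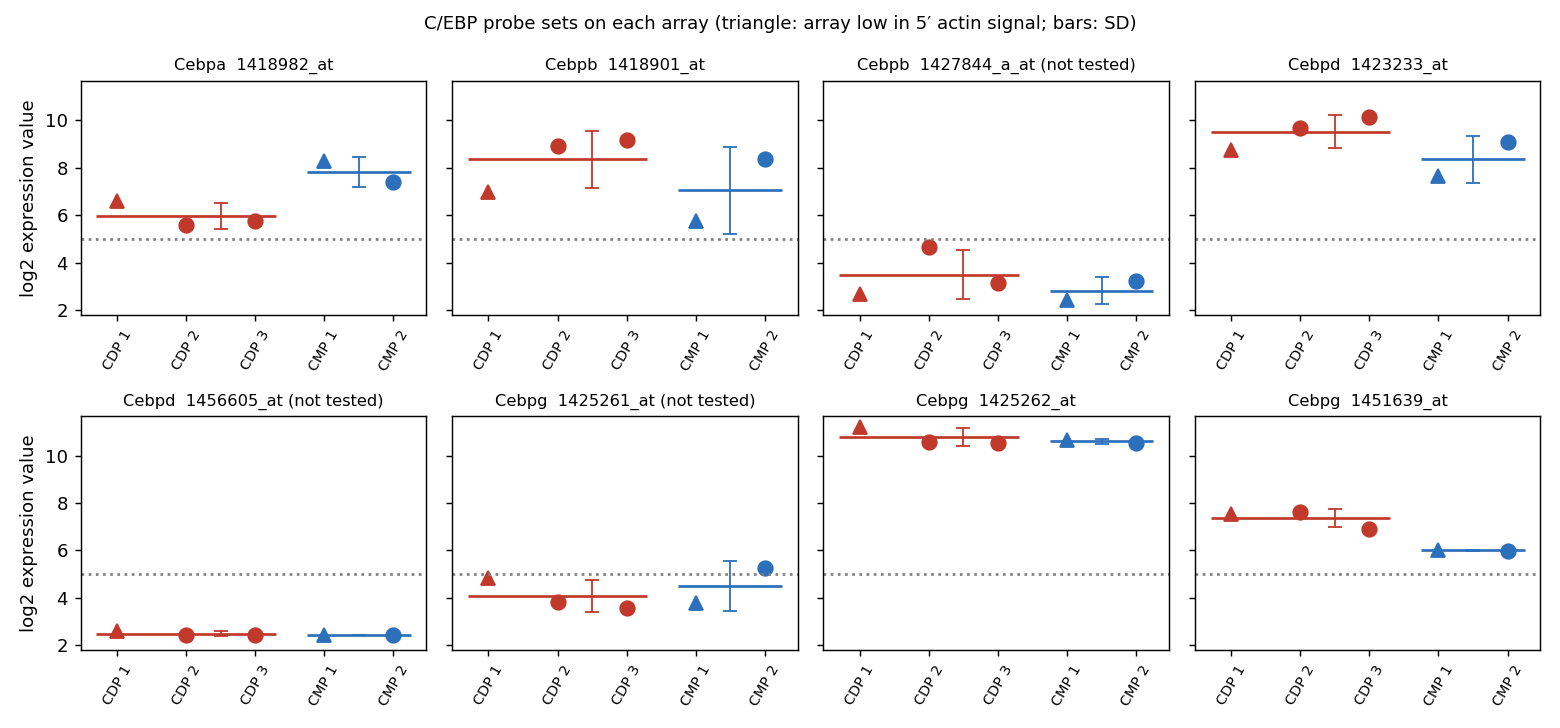
Log2 expression of the 8 C/EBP probe sets (vertical axis) on the 3 CDP arrays (red) and 2 CMP arrays (blue), with group means as lines, SD as bars and a dotted line at the detection level of log2 5. Triangles are the low-actin arrays. Cebpa (1418982_at) lies lower on every CDP array than on either CMP array, and the brightest Cebpb and Cebpd probe sets lie lowest within their group on the triangles.

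Cebpa, the factor of granulocyte and monocyte progenitors, was measured by 1 probe set (1418982_at) and detected on all 5 arrays. It read 6.60, 5.56 and 5.74 on CDP 1, CDP 2 and CDP 3, and 8.27 and 7.38 on CMP 1 and CMP 2. All CDP arrays lay below both CMP arrays, a pattern shared by 11.0% of tested probe sets. The group means were 5.97 ± 0.55 (SD, n = 3) in CDP and 7.83 ± 0.63 (SD, n = 2) in CMP, and their difference was -1.86 ± 0.47 (SE; -1.97 relative to the median), 3.62-fold lower in CDP. It did not pass in limma (adjusted p = 0.136), and the fit's 95% interval, not adjusted for the number of probe sets, ran from -3.00 to -0.71. A lower difference was found for 1.35% of tested probe sets, and one at least as large in either direction for 4.46%. In such sorted bulk samples, fewer cells with the transcript and less transcript per cell cannot be told apart.

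The lower Cebpa value in CDP was nearly as large within each kind of array. Between the low-actin arrays it was -1.68 and between the others -1.72. Within each group the low-actin array gave the highest Cebpa value. With the low-actin arrays as a block the difference was -1.70 ± 0.26 and passed (limma, adjusted p = 0.0152). That fit called 8.69% of all tested probe sets, 6.19% higher and 2.50% lower in CDP. Without CDP 2, the array with neutrophil transcripts, it was -1.66. It was negative in all 18 alternative settings, but most of these could not turn its sign. The groups did not overlap, so leaving out arrays could not do so, and the filters and variance models left the difference at -1.86. The summed mast cell and basophil markers were likewise lower, and the summed monocyte markers higher, on every CDP array than on either CMP array, and their part in the Cebpa difference was not tested.

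Cebpb, which acts in stress granulopoiesis and in macrophages, had 2 probe sets. The brighter (1418901_at) read 6.97, 8.92 and 9.17 on CDP 1 to CDP 3, and 5.76 and 8.35 on CMP 1 and CMP 2. CDP 1 lay below CMP 2, so the groups overlapped, and in each group the low-actin array was the lowest. The means were 8.35 ± 1.20 (SD, n = 3) and 7.05 ± 1.83 (SD, n = 2), a difference of 1.30 ± 0.97 (SE; 1.19 relative to the median) that did not pass in limma (adjusted p = 0.589, 95% interval -1.05 to 3.65). The difference was 1.22 between the low-actin arrays and 0.70 between the others, and 0.92 ± 0.28 with them as a block (adjusted p = 0.0957). A single CMP array set much of its size, since it was 0.01 without CMP 1 and 2.60 without CMP 2. The second Cebpb probe set (1427844_a_at) stayed below log2 5 on every array, between 2.41 and 4.65, and was not tested.

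Cebpd, the inflammation-induced member, read 8.76, 9.67 and 10.14 on CDP 1 to CDP 3 and 7.66 and 9.06 on CMP 1 and CMP 2 (1423233_at). CDP 1 lay just below CMP 2, so these groups overlapped too. The means were 9.52 ± 0.70 (SD, n = 3) and 8.36 ± 0.99 (SD, n = 2), a difference of 1.16 ± 0.59 (SE; 1.05 relative to the median), with an adjusted p of 0.413 in limma and a 95% interval from -0.28 to 2.60. Within the low-actin arrays the difference was 1.10 and within the others 0.84, and as a block it was 0.95 ± 0.28 (adjusted p = 0.0920). It was 0.46 without CMP 1 and 1.86 without CMP 2. The second Cebpd probe set (1456605_at) lay between 2.43 and 2.60 on all arrays, below detection.

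Cebpg, the partner without a strong activation domain, had 3 probe sets that differed from each other. The brightest (1425262_at) read 11.21, 10.59 and 10.55 on the CDP arrays and 10.68 and 10.54 on the CMP arrays, so that only CDP 1 stood outside a narrow band. Its difference was 0.18 ± 0.35 (SE; 0.06 relative to the median; limma adjusted p = 0.869) with a 95% interval from -0.68 to 1.03, and it became -0.04 without CDP 1. The second (1451639_at) read 7.54, 7.60 and 6.91 on the CDP arrays and 6.01 and 5.99 on the CMP arrays. Here every CDP array lay above both CMP arrays, as on 21.2% of tested probe sets, and the difference was 1.35 ± 0.35 (SE; 1.23 relative to the median), 2.55-fold higher in CDP without passing (adjusted p = 0.146, 95% interval 0.49 to 2.21). It was 1.53 between the low-actin arrays and 1.27 between the others, and passed with those arrays as a block (1.38 ± 0.31, adjusted p = 0.0476). The third (1425261_at) reached log2 5 on CMP 2 alone, at 5.26, and was not tested. The files do not say which parts of the transcript these probe sets cover, so no single direction is given for Cebpg.

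**Figure D2:**
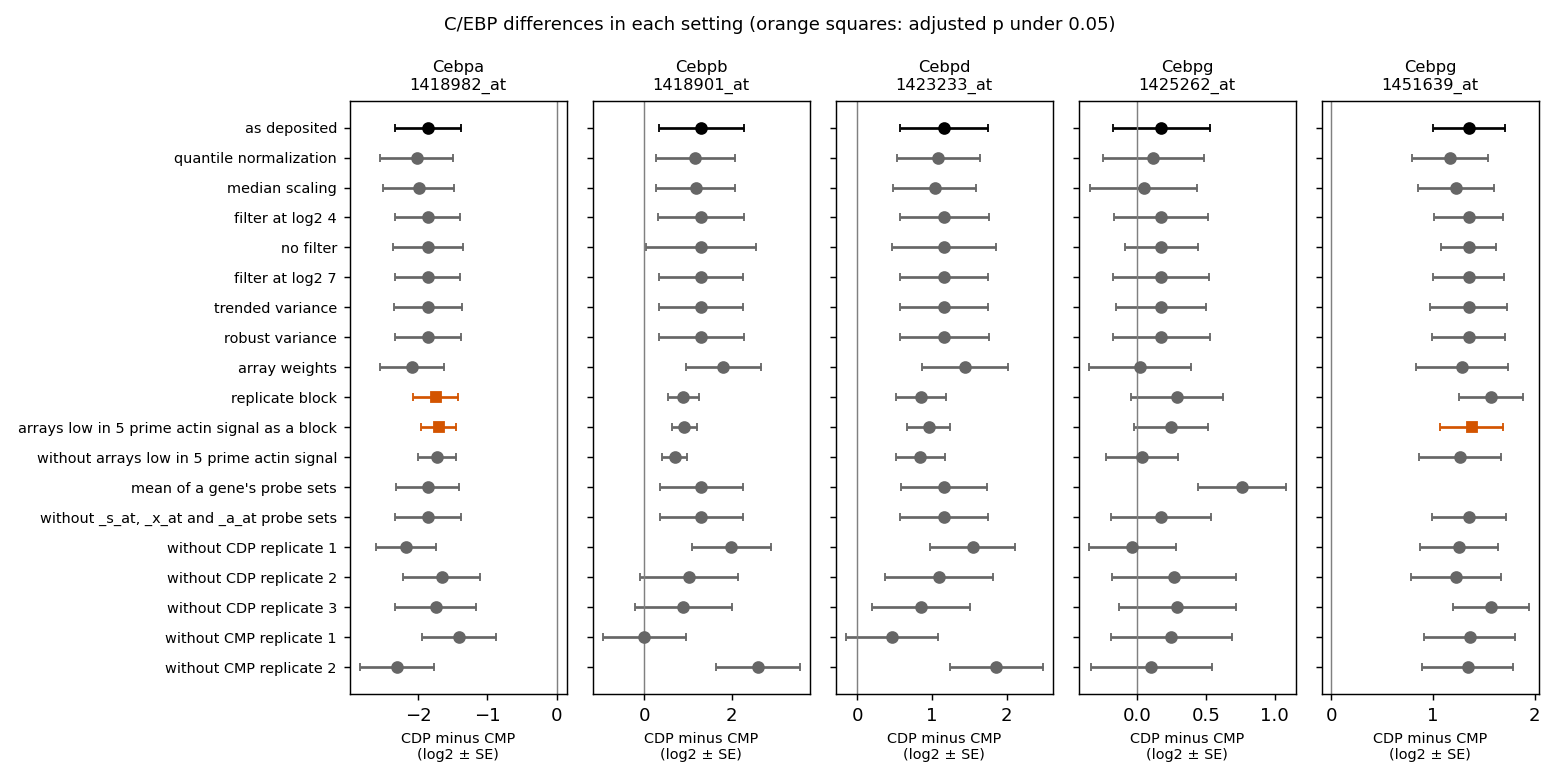
CDP minus CMP difference (horizontal axis, log2 ± SE from limma, a separate scale per panel) of the 5 tested C/EBP probe sets in the values as deposited and in up to 18 alternative settings (vertical axis). Cebpa is below 0 in every setting, at -2.31 to -1.41 when single arrays are left out, and Cebpb ranges from 0.01 to 2.60 over the same fits. Orange squares mark an adjusted p under 0.05.

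The members also differed from each other in how they varied over the arrays. After each probe set was centred on its mean over the 5 arrays, Cebpb and Cebpd lay closest of the members of different genes (Euclidean distance 1.15 log2 units) and Cebpa and Cebpb farthest (4.91), with Cebpa and Cebpd at 4.06. Within each group the low-actin array was lowest for Cebpb and Cebpd and highest for Cebpa, so these distances include that split. The gap between Cebpa and the brightest Cebpg probe set within an array was -4.61, -5.03 and -4.81 on the CDP arrays and -2.41 and -3.16 on the CMP arrays. That gap was thus lower on every CDP array, with a difference of means of -2.03 log2 units, and a ratio within an array is not moved by scaling whole arrays. The exact permutation test, 2-sided, gave p = 0.1, the smallest p that 3 arrays against 2 allow. The gap between Cebpa and Cebpd was -2.17, -4.11 and -4.39 against 0.61 and -1.68 (exact permutation p = 0.2), and that between Cebpa and Cebpb overlapped between the groups (exact permutation p = 0.3). All 3 gaps had an adjusted p of 0.3 over the 3 (exact permutation test, Benjamini-Hochberg), and they were chosen after the values were seen.

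**Figure D3:**
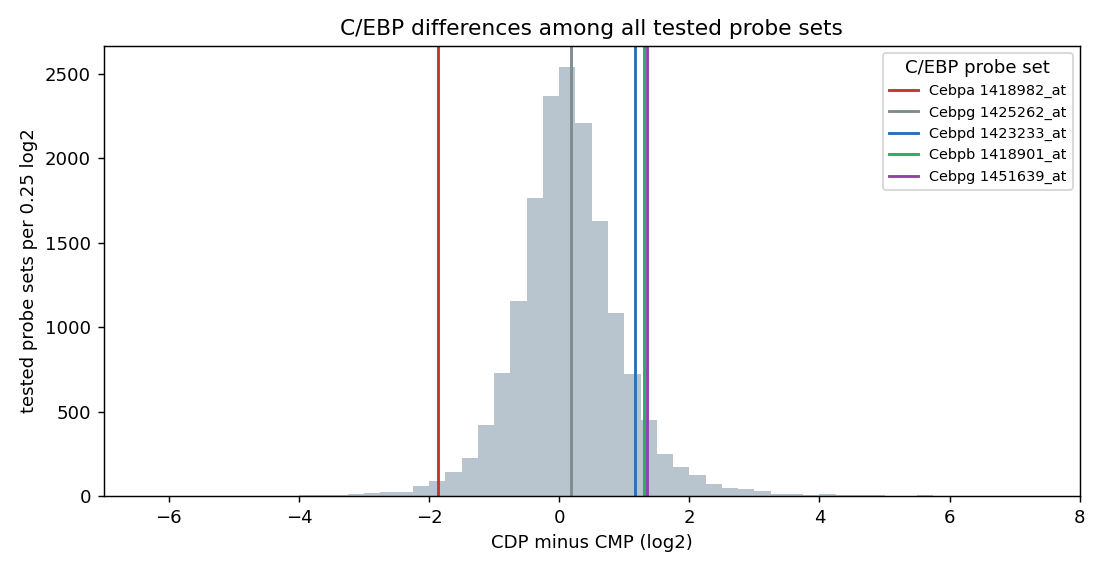
Histogram of the CDP minus CMP difference (horizontal axis, log2) over the 16552 tested probe sets (vertical axis, probe sets per bin of 0.25), with the 5 tested C/EBP probe sets as vertical lines. Cebpa at -1.86 lies in the lower tail, the 1425262_at set of Cebpg at 0.18 near the centre, and Cebpd, Cebpb and the 1451639_at set of Cebpg between 1.16 and 1.35.

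By the same distance, the 3 genes nearest to each member over the 5 arrays were sought among tested probe sets with 1 symbol. For Cebpa these were Bbip1, a part of the complex that serves primary cilia (0.23), Asah2, a ceramidase (0.34), and Bzw2 (0.35). For Cebpb they were C87436 (0.32), Miip (0.33) and the mitochondrial sulfur dioxygenase Ethe1 (0.35), and for Cebpd the peptidase Dnpep (0.17), Nubp1 (0.19) and the lipase Abhd12 (0.22). The brightest Cebpg probe set lay nearest to the splicing factor Srsf3 (0.06), the cohesin subunit Stag2 (0.08) and Ikbkg (0.08), and the second to the condensin subunit Ncaph2 (0.15), Tubgcp5 (0.20) and Eps15 (0.28). None of these 15 genes passed in limma, with adjusted p from 0.123 to 0.916. That follows from their choice, as they have nearly the same pattern as members that did not pass. A pattern over 5 arrays is short, and no shared control is read from these matches.

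Genes whose products pair with, bind, oppose or control C/EBP factors were read from a list of 37 symbols, of which 36 had a probe set and 28 were tested. Of these 2 rose and 1 fell in CDP, beside 1.31% and 0.423% of all tested probe sets, and 25 did not pass. The median difference was -0.27 (-0.38 relative to 0.12), with 12 positive and 16 negative. Each gene is represented by its brightest tested probe set.

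**Figure D4:**
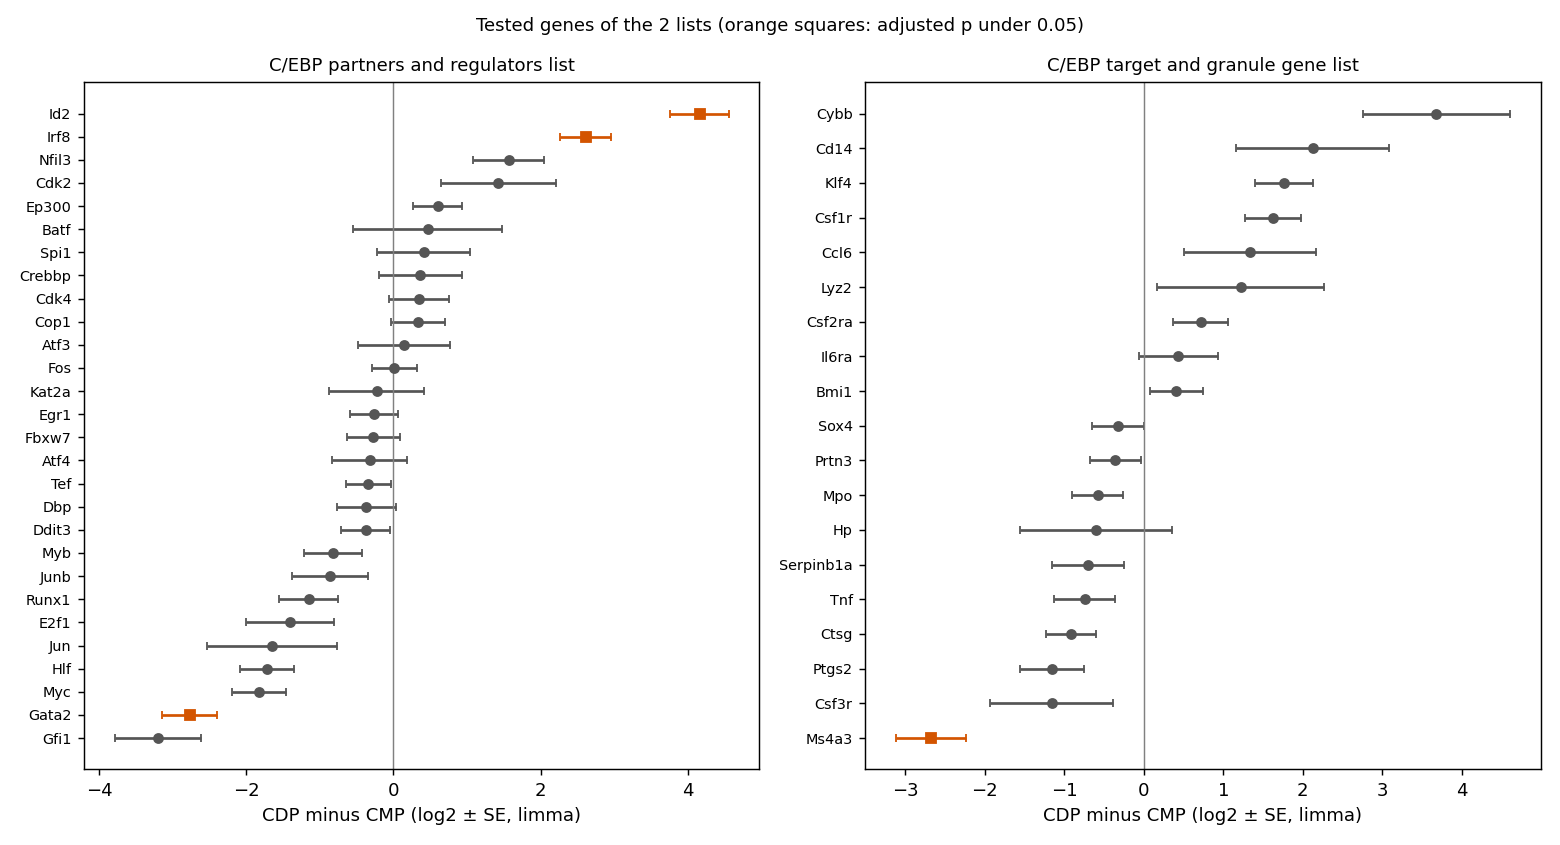
CDP minus CMP difference (horizontal axis, log2 ± SE from limma) of the tested genes of the list of C/EBP partners and regulators (left, 28 genes) and of the list of C/EBP targets and granule genes (right, 19 genes), ordered by size. Orange squares mark an adjusted p under 0.05, which were Id2, Irf8, Gata2 and Ms4a3.

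Irf8, the factor of the series' title, rose in CDP by 2.61 ± 0.34 (SE; limma, adjusted p = 0.0318) on its brightest probe set. That set went from 12.22 and 12.89 on the CMP arrays to between 15.07 and 15.26 on the CDP arrays. The dimmer Irf8 probe set was likewise higher on every CDP array, at 2.78 ± 0.53. It did not pass (limma, adjusted p = 0.0694). Id2, whose product holds E proteins off DNA, rose by 4.16 ± 0.40, from 5.85 and 5.07 to between 9.37 and 9.99 (limma, adjusted p = 0.0155). Gata2, which opposes granulocyte and monocyte fate in early progenitors, fell by 2.77 ± 0.38 on its brightest probe set (limma, adjusted p = 0.0349). That set read 5.31 to 5.55 on CDP against 8.60 and 7.71 on CMP. The dimmer tested Gata2 probe set was detected on the CMP arrays alone. With values below 5 set to 5 it was at least 1.85-fold lower in CDP, and it did not pass (limma, adjusted p = 0.0680). The summed mast cell and basophil markers were also lower on every CDP array. Of the 28 tested genes of the list, 4 had every CDP array above both CMP arrays and 8 had every CDP array below. The shares of all tested probe sets were 21.2% and 11.0%. The 8, and the negative differences counted above, include Hlf, which entered the test only through the CMP arrays.

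Gfi1, a repressor needed with C/EBP factors for neutrophils, read 7.43, 5.59 and 6.52 on the CDP arrays and 10.02 and 9.40 on the CMP arrays, a difference of -3.20 ± 0.59 (SE) that did not pass (limma, adjusted p = 0.0628). With the low-actin arrays as a block it passed (-3.02 ± 0.38, adjusted p = 0.00976). Myc, which C/EBPα is known to restrain, was at -1.82 ± 0.37 (adjusted p = 0.0810) and passed with that block (-1.86 ± 0.32, adjusted p = 0.0224). Runx1, which acts upstream of Cebpa in blood cells, was at -1.15 ± 0.40 on its brightest probe set (adjusted p = 0.247), with signs that differed among its tested probe sets. Hlf, a leucine zipper factor of stem cells, was detected on the CMP arrays alone. Its brighter probe set, 1434735_at, read 4.08 to 4.17 on CDP and 6.29 and 5.42 on CMP, at least 1.81-fold lower in CDP with values below 5 set to 5, and its other, 1434736_at, at least 2.37-fold lower. Hlf entered the test only through the group where it was high, so no call is read from it.

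Nfil3, a leucine zipper repressor, read 8.01 to 8.33 on CDP and 5.86 and 7.30 on CMP, with a difference of 1.57 ± 0.48 (limma, adjusted p = 0.197) that was 0.85 without CMP 1 and 2.28 without CMP 2. Spi1, which encodes PU.1 and works with C/EBP factors at myeloid genes, overlapped between the groups at 0.41 ± 0.63 (adjusted p = 0.818), and was at -0.08 without CDP 3 and at 0.99 without CDP 1. Ddit3, which encodes the C/EBP partner CHOP, had probe sets of opposite sign, at -0.38 ± 0.33 and 0.37 ± 0.37. The Tribbles genes, whose products direct C/EBPα to degradation, were mostly below detection. Trib2 and Trib3 stayed below log2 5 on every array, and Trib1 reached it on CMP 1 alone (6.35, named here after its values were seen).

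Known C/EBP targets in myeloid cells and granule genes were read from a list of 42 symbols, of which 37 had a probe set and 19 were tested. Of these 0 rose in limma (3 at an unadjusted p under 0.05), 1 fell and 18 did not pass, again beside 1.31% and 0.423% of all tested probe sets. The median difference was -0.33 (-0.44 relative to 0.12), with 9 positive and 10 negative. In 4 genes every CDP array lay above both CMP arrays and in 6 below, beside 21.2% and 11.0% of all tested probe sets. The 4 and the 9 include Cybb, which entered the test only through the CDP arrays. Ms4a3, a membrane gene of granulocyte and monocyte progenitors, fell by 2.68 ± 0.44 (SE), from 8.76 and 9.83 on CMP to between 6.24 and 6.91 on CDP (adjusted p = 0.0491). The limma calls of Ms4a3, Id2, Irf8 and Gata2 each ended whichever CDP array was left out, with adjusted p from 0.0551 to 0.239. Their differences kept their sign without any 1 array, which had to follow because their groups did not overlap.

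Csf3r, the receptor of the neutrophil growth factor G-CSF and a target of C/EBPα, read 5.74, 7.70 and 7.95 on CDP and 7.65 and 8.93 on CMP, with overlap. Its difference of -1.16 ± 0.77 (SE) did not pass (limma, adjusted p = 0.535), though it passed with the low-actin arrays as a block (-1.45 ± 0.30, adjusted p = 0.0385), and it was -0.47 without CDP 1. It was -1.90 between the low-actin arrays and -1.11 between the others. Of the primary granule genes, Mpo was at -0.58 ± 0.32 (adjusted p = 0.446), between 14.21 and 14.61 on CDP and at 14.83 and 15.04 on CMP, and Ctsg at -0.91 ± 0.31 (adjusted p = 0.237). Elane was detected on CMP 2 alone, at 7.38, and was not tested. S100a8, a calcium-binding protein abundant in neutrophils, was detected on CDP 2 alone and was not tested either.

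Among the other genes of the target list, Klf4, a monocyte factor, was at 1.76 ± 0.36 (SE; limma, adjusted p = 0.0860) and passed with the low-actin arrays as a block (1.73 ± 0.32, adjusted p = 0.0279). Csf1r, the receptor of the macrophage growth factor, was at 1.63 ± 0.35 on its brightest probe set (adjusted p = 0.0966), passed there with the block (1.70 ± 0.27, adjusted p = 0.0180), and passed without it on another probe set (2.13 ± 0.29, adjusted p = 0.0355). CD115, its product, was part of the sort. Cybb, the catalytic chain of the phagocyte oxidase, read 6.25 to 8.79 on CDP and 2.74 and 4.96 on CMP, at least 5.77-fold higher in CDP with values below 5 set to 5. Cybb was detected on the CDP arrays alone and entered the test only through them, so no call is read from it.

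The co-receptor Cd14 read 5.06 to 6.89 on CDP and 2.70 and 5.56 on CMP, below detection on CMP 1. With values below 5 set to 5 it was at least 1.97-fold higher in CDP, and it overlapped between the groups. Its fitted difference did not pass (limma, adjusted p = 0.360), passed with the block (adjusted p = 0.0282), and was 0.70 without CMP 1 and 3.55 without CMP 2. The GM-CSF receptor chain Csf2ra was at 0.71 ± 0.35 (adjusted p = 0.387) and at 0.38 without CMP 2. Ptgs2, the inducible prostaglandin synthase, was at -1.15 ± 0.40 (adjusted p = 0.240), and neither of these 2 passed with the block.

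Neutrophil transcripts moved with 1 CDP array, not with the group. On CDP 2 and CDP 3, Cebpa read 5.56 and 5.74, Cebpb 8.92 and 9.17, and S100a8 12.52 and 2.65. The part of neutrophil transcripts in the C/EBP values was not tested. Cebpe, the member tied to secondary granule genes, was not analysed here. Leaving out CDP 2 gave -1.66 for Cebpa, 1.02 for Cebpb and 1.09 for Cebpd. For the brightest and second probe sets of Cebpg it gave 0.27 and 1.23. Each had the sign it had with all arrays. For Cebpa and the second Cebpg probe set the groups did not overlap, so the sign could not change.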

How the data were processed

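Expression was measured on 5 Affymetrix mouse whole-genome arrays, 3 of CDP and 2 of CMP, grouped by sample title. The authors deposited log2 values made with GCRMA, per the submitters' processing notes, which subtracts background by probe sequence, normalizes between arrays and summarises probe sets, so dim values crowd at a shared lowest value of 2.26 and have no order there. The version and software are not given in the sources used here. The number of arrays limits the precision.

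Of 45037 probe sets (64 controls left out), 34945 had 1 gene symbol in the platform annotation, 932 several and 9160 none. Symbols were checked by gene identifier against RefSeq (GRCm38.p6) and 0 changed. Probe sets with at least 2 arrays at log2 5 or above (16552) were fitted in limma 3.58.1 (R 4.3.3, lmFit and eBayes, 2-sided) with all 5 arrays and no covariate, and the procedure was tested on simulated data. The brightest tested probe set stands for a gene. Members were all named; of each list the 8 genes of smallest p, with Irf8, Gfi1, Spi1, Ddit3, Csf3r, Mpo, Elane and S100a8 whatever their values, and the 3 nearest genes per member. The members, lists and settings were chosen with earlier results of these data known. Promoter stretches are from RefSeq. The 18 alternatives were other scalings, filters, variance models, array weights, blocks, probe set choices and leaving out arrays.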

Additional observations from a re-analysis of the deposited data

How the results depend on the processing

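Cebpa, Cebpb and Cebpd kept the sign of their differences in all 18 settings. For Cebpa, leaving out arrays could not turn the sign, because its groups did not overlap. The brightest Cebpg probe set kept its sign in 17, turning to -0.036 without CDP replicate 1. The number of C/EBP genes that passed in limma went from 0 to 1, Cebpa, with the low-actin arrays as a block (-1.70) and with the replicate block (-1.75, adjusted p = 0.0490). Replicate number 1 marks the same arrays as the low 5′ actin signal, and deviations of same-numbered arrays correlated at 0.63. No label pairs the samples, and only 2 pairs exist. Leaving out single arrays gave -2.31 to -1.41 for Cebpa, 0.01 to 2.60 for Cebpb, 0.46 to 1.86 for Cebpd and -0.036 to 0.29 for the brightest Cebpg set, with 0 C/EBP genes passing (1 to 3 at an unadjusted p under 0.05). Spi1 turned to -0.080 under the replicate block and ranged from -0.080 (without CDP replicate 3) to 0.99 when single arrays were left out. The cause of these shifts was not tested.

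Among partners and regulators, 2 genes higher in CDP became 0 without a filter and without the low-actin arrays, and 1 without the _s_at, _x_at and _a_at probe sets. The 1 gene lower became 0 without a filter and without the _s_at, _x_at and _a_at probe sets. That count became 4 with the replicate block and with gene means, and 5 with the 5′ block. Id2 and Gata2 left the test without those probe sets, as all of their tested ones end in _a_at. Among targets, 0 genes higher became 2 with the replicate block and with gene means and 4 with the 5′ block, and 1 lower became 2 with the 5′ block and 0 with the filter at log2 4, no filter, trended or robust variance, array weights, and without the low-actin arrays. Where these limma counts became 0, 2 to 7 genes had an unadjusted p under 0.05. Without any 1 array the 4 list counts were all 0 (1 to 5 genes at an unadjusted p under 0.05). Over all tested probe sets, 287 calls in limma became 55 without a filter, 608 with the replicate block, 1438 with the 5′ block, 0 without the low-actin arrays (4683 at an unadjusted p under 0.05) and 0 to 44 without any 1 array (1490 to 3200 unadjusted).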
